A study of Mus musculus with 19 samples.

Results

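Synaptic vesicle and release machinery genes were followed in cultured mouse hippocampal neurons after block of NMDA receptors, the glutamate-gated channels that let calcium into excitatory synapses. The set was a fixed list of 50 gene symbols in 9 role groups. It covered synapsins, vesicle membrane proteins, synaptotagmins, Doc2 and rabphilin, SNAREs, SNARE regulators, Rab3 GTPases, active zone proteins and endocytic proteins. The rule lists the symbols by function and uses the signal only to keep probes. The arrays carried 111 probes for them, and 99 probes were kept because neuron signal was well above background on at least 4 of the 19 arrays. These probes covered 48 of the 50 genes. The probes filed under the symbols Sv2c, a vesicle glycoprotein, and Syt2, a calcium sensor of fast release, were not well above background on any array. A probe under an older name of Sv2c, which the rule does not reach, was so on all 19. The 48 genes were tested together with all other genes, 19204 in all.

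The neurons were dissociated hippocampal cells from mice, kept for 21 days in 6-well plates and treated for 6 h. Vehicle arrays numbered 5, arrays with 100 µM AP5 numbered 5, arrays with 100 nM NVP-AAM077 (NVP) numbered 4, and arrays with 1 µM of the compound titled Ro25 numbered 5. AP5 competes with glutamate for its site on NMDA receptors of any subunit make-up. NVP also competes for that site and favours GluN2A-containing receptors to some degree. The treatment labels give Ro25 a longer name that shares its prefix with a GluN2B antagonist but not its number, so its identity was not settled. The labels name no strain, genotype, age or sex, and do not say that replicates were separate cultures. The p-values therefore cover just the spread among these arrays, which may be technical. Doses differed between compounds, and their values are given next to each other without a match of dose. On every array the neuron RNA was labelled red (Cy5) and a commercial universal mouse reference RNA green (Cy3). The basic value is the log2 ratio of red over green, and a difference of group means in that ratio is called a log2 fold change.

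Neurotransmitter is released when a vesicle, tethered to the active zone by scaffold proteins, is primed by Munc13 proteins and fuses through SNARE proteins on the vesicle and the plasma membrane. Synaptotagmins sense calcium, complexins hold and trigger the assembled SNAREs, and NSF with its SNAP adaptors takes SNARE complexes apart afterwards. Synapsins cluster vesicles away from the release site, Rab3 GTPases link vesicles to the active zone, and dynamin, amphiphysin, synaptojanin and AP180 retrieve membrane by endocytosis. In hippocampal neurons these proteins fill presynaptic terminals, and changes in activity are known to alter terminals over hours to days.

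Median signals of the arrays ran from 135.5 to 177.8 in red and from 88.7 to 106.8 in green, and no gene spot was saturated. An array had 24923 to 28530 probes with red well above background, and the probes used were so on all 19 arrays for 46 of the 48 genes. The number of arrays limits the precision, and the median 95% interval of a log2 fold change reached 0.16 either side for AP5 against vehicle. Slides were tied to treatment. Slide 1 held 4 AP5 arrays, slide 5 held 4 vehicle arrays, and no slide held both groups. Neuronal marker lists had high ratios with vehicle (2.89 ± 0.13 for excitatory and 3.06 ± 0.12 for GABAergic neurons, SD, n = 5). Astrocyte markers did too, at 3.73 ± 0.38 (SD, n = 5), so the cultures also held astrocyte RNA. Microglial markers lay at -2.11 ± 0.08 (SD, n = 5), and 3 of the 14 (Itgam, P2ry12 and C1qc) were not well above background. In bulk RNA, fewer cells of a type and less RNA per cell cannot be told apart.

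With vehicle, 43 of the 48 genes had a mean ratio above 0, meaning more signal from neuron RNA than from the reference. The median over the 48 genes was 3.04, and the range ran from -1.0 for Syn1 to 7.38 for Snap91. Probes differ in how they bind, so the order of these ratios is no order of transcript abundance. Syn1, which encodes the vesicle-clustering synapsin I, had probes with unlike values. Its brightest probe at chrX:20077596-20077655 (mm8) had a vehicle ratio of -1.0, while another kept probe at chrX:20017726-20017785 had 2.01. Probe positions are those of the mm8 mouse assembly in the file headers, and whether a probe lies in an exon or a UTR was not analysed here.

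Promoter sequence was taken from RefSeq (GRCm38.p6), which held windows from 250 bases before to 50 after a gene's start for 38 of the 50 genes. The other 12 were Vamp2, Snap25, Syn3, Syngr3, Syt4, Syt5, Syt7, Syt12, Syt13, Doc2a, Doc2b and Rims2. To set genes whose ratio rose with AP5 beside 1 whose ratio hardly differed, 4 stretches of 200 bases just upstream of the start are shown. They belong to the 3 genes with 1 window each and the largest called rises of the ratio, and to Dnm1, with 1 window and the smallest difference. They lie at chr3:88772600-88772799 on the minus strand for Syt11 and chr13:54302356-54302555 on the plus strand for Cplx2. Those of Bsn and Dnm1 lie at chr9:108190384-108190583 and chr2:32353330-32353529, both on the minus strand. Capitals mark the GC box GGGCGG and the motif of the factor NRF1, searched on both strands.
Syt11: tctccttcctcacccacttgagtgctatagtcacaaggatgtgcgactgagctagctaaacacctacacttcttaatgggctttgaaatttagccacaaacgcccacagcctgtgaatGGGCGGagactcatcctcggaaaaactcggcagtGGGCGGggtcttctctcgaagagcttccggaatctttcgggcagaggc
Cplx2: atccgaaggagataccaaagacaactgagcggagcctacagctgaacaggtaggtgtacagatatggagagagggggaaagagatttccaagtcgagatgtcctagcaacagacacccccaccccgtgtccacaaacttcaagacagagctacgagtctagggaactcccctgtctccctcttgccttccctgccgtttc
Bsn: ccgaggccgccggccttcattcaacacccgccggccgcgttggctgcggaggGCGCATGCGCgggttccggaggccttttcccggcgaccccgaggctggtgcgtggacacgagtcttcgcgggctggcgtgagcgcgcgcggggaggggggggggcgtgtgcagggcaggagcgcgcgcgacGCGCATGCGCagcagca
Dnm1: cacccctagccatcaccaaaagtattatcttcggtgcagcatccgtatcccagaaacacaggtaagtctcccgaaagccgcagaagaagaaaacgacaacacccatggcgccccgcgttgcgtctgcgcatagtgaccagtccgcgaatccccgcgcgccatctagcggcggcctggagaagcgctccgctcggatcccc
The printed stretch of Syt11 holds 2 GC boxes and that of Bsn holds 2 copies of the NRF1 motif, and those of Cplx2 and Dnm1 hold neither. Over the whole windows, GGGCGG was present for 7 of the 10 genes called with AP5 that have an entry, for 21 of the 26 not called, and for 38.2% of all 27025 genes with an entry. The NRF1 motif was present for 1 of 10, 6 of 26 and 5.19%. The core of the cAMP-response element, TGACG, was present for 2 of 10, 7 of 26 and 23%, and the E-box CACGTG for 1 of 10, 4 of 26 and 8.09%. The MEF2 motif was present for none of the 38 genes and for 3.7% of all. A match is a description of these letters only. In the neuron channel alone the AP5 differences were 0.02 for Syt11, 0.05 for Cplx2, 0.01 for Bsn and -0.11 for Dnm1, none of them called.

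The ratio to the reference was higher on AP5 than on vehicle arrays for 13 of the 48 genes and lower for none. The 13 were Doc2a, Syt11, Sv2b, Syt13, Syt1, Cplx2, Rph3a, Syn2, Bsn, Cplx1, Rab3a, Syngr3 and Napb, with log2 fold changes from 0.24 to 0.59. The test was limma's moderated test over all 19 arrays with Benjamini-Hochberg adjustment over all genes and a threshold of 0.05. Of all genes tested 18% were called, 10.8% higher and 7.22% lower, against 27.1% of these genes, all higher. The median log2 fold change was 0.20 over the 48 genes and 0.01 over all genes, and 46 of the 48 values lay above 0, as did 53.2% of all genes. In 11 of the 48 genes every AP5 array lay above every vehicle array, a pattern that 7.43% of all genes showed. The other 35 genes ran from -0.19 for Vamp2 to 0.38 for Syt4. At an unadjusted p under 0.05, 22 of the 48 passed, as did 31.4% of all genes. No slide held both groups, and with slide as a fixed term none of the 48 genes was called, so treatment and slide cannot be told apart in any of these calls. In the red channel alone, which carries the neuron RNA, the difference was opposite in sign to the ratio's for 7 of the 13, and is given with each of them.

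Synapsins tether vesicles in the reserve cluster, and 1 of the 3 rose. Syn2, synapsin II, had ratios of 4.96, 5.22, 5.01, 5.10 and 4.91 on vehicle arrays 1 to 5. On AP5 arrays 1 to 5 it had 5.47, 5.41, 5.40, 5.51 and 5.41. Every AP5 array lay above every vehicle array, and the change was 0.40 (SE 0.07, adjusted p = 4.28e-04 by limma), or 1.32-fold (95% interval 1.20 to 1.45). The red difference was 0.0080, and with all arrays scaled to 1 common spread of ratios the change was -0.16. Its 2 other kept probes gave 0.55 and 0.05. Syn1 gave 0.20 (adjusted p = 0.0506) and Syn3 0.08, and neither passed the test. The other kept probe of Syn1 was called at 0.26 (adjusted p = 0.0145).

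Among the 7 vesicle membrane proteins tested, 2 rose and all 7 values lay above 0. Sv2b, a vesicle glycoprotein of the family that takes up botulinum toxin, had vehicle ratios of 5.47, 5.92, 5.59, 5.51 and 5.52. With AP5 it had 6.16, 6.08, 6.11, 6.11 and 6.12. The AP5 arrays had an SD of 0.03 (n = 5) and lay above all vehicle arrays, of which vehicle 2 was the highest. The change of the ratio was 0.51 (SE 0.08, adjusted p = 1.79e-04), with -0.0085 in red and -0.34 in green. Syngr3, a synaptogyrin of the vesicle membrane, rose by 0.28 in the ratio (adjusted p = 0.0314) with -0.16 in red. Its call was lost (0.25 to 0.29) on leaving out any of AP5 1, AP5 3, AP5 4, vehicle 1, vehicle 3 or vehicle 5. The others (Syp, Sypl, Syngr1, Synpr and Sv2a) ran from 0.07 to 0.36 without passing the test.

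Of the 9 synaptotagmins tested, 3 rose and the other 6 ran from 0.03 to 0.38. Syt11, a member of the family that lacks calcium binding, had the smallest adjusted p of the whole set. Its vehicle ratios were 3.62, 3.97, 3.77, 3.59 and 3.86, and its AP5 ratios 4.22, 4.29, 4.37, 4.48 and 4.11. The groups did not overlap, and the change was 0.53 (SE 0.07, adjusted p = 7.68e-05), or 1.45-fold (1.30 to 1.61). The probe lies at chr3:88831727-88831786 (mm8), and the 5 kept probes of Syt11 gave 0.05 to 0.53, with 4 of them called.

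Syt1, the calcium sensor of fast synchronous release, had vehicle ratios of 6.75, 6.82, 6.79, 6.78 and 6.91. On AP5 arrays it had 7.34, 7.32, 7.20, 7.46 and 6.99. All AP5 arrays were above all vehicle arrays, AP5 5 least so, and the change of the ratio was 0.45 (SE 0.07, adjusted p = 3.54e-04), with -0.05 in red and -0.29 in green. Its 5 probes gave 0.21 to 0.49. Syt13, an atypical synaptotagmin without calcium binding, had vehicle ratios of 1.99, 2.34, 1.88, 2.11 and 1.77. The AP5 arrays gave 2.67, 2.49, 2.50, 2.16 and 2.78. AP5 4 lay below vehicle 2, so the groups overlapped, and the change was 0.50 (SE 0.12, adjusted p = 0.00754).

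Doc2a and Rph3a, calcium-binding C2 domain proteins that act beside the synaptotagmins, both rose in the ratio. Doc2a had vehicle ratios of 2.36, 2.46, 2.49, 2.63 and 2.28, and AP5 ratios of 3.04, 3.14, 3.18, 2.93 and 2.90. These groups stood apart, and the change of 0.59 (SE 0.09, adjusted p = 1.55e-04) was the largest of the 48, at 1.51-fold (1.32 to 1.71). Rph3a, rabphilin, which binds Rab3 on vesicles, had vehicle ratios of 2.88, 2.74, 3.39, 3.27 and 3.07. Its AP5 ratios were 3.53, 3.40, 3.38, 3.76 and 3.29. The groups overlapped, since vehicle 3 lay above AP5 3 and AP5 5, and the change of the ratio was 0.41 (SE 0.13, adjusted p = 0.0368), with -0.06 in red and -0.19 in green. It did not pass (0.32 to 0.41) without AP5 1, AP5 4, vehicle 1, vehicle 2 or vehicle 5. Doc2b gave 0.14 and was not called.

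None of the 5 core SNARE genes passed the test, though 4 of the 5 values lay above 0. Snap25, the plasma membrane SNARE, had vehicle ratios of 6.76, 7.23, 7.07, 7.32 and 7.05. Its AP5 ratios were 7.42, 7.17, 7.31, 7.34 and 7.57. The groups overlapped, and the difference was 0.28 (SE 0.11, adjusted p = 0.076). It was called without vehicle 4 (0.34, adjusted p = 0.0385), and 1 of its other probes was called at 0.42 (adjusted p = 0.0046). Vamp2, the vesicle SNARE synaptobrevin 2, gave -0.19 (adjusted p = 0.202), the lowest value of the set, while its 2 other probes gave 0.09 each.

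Among 6 SNARE regulators, 3 rose. Cplx2, complexin 2, which binds assembled SNAREs, had vehicle ratios of 4.55, 5.07, 4.93, 4.69 and 4.81. Its AP5 ratios were 5.31, 5.08, 5.23, 5.23 and 5.41. The lowest AP5 array lay just above the highest vehicle array, and the change was 0.45 (SE 0.10, adjusted p = 0.00323), with 0.05 in red. Cplx1, the other complexin of forebrain terminals, rose by 0.29 in the ratio (adjusted p = 0.0127), with -0.15 in red and -0.33 in green. Napb, the brain SNAP adaptor of NSF, rose by 0.24 in the ratio (adjusted p = 0.0134), with -0.07 in red. Nsf itself, the ATPase that takes SNARE complexes apart, gave 0.19 (adjusted p = 0.241, 4 vehicle arrays, since its spot on vehicle 5 was left out). Stxbp5, tomosyn, gave -0.02.

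Of the 3 Rab3 GTPases, Rab3a rose in the ratio. Its vehicle ratios were 4.38, 4.72, 4.57, 4.55 and 4.39, and its AP5 ratios 4.83, 4.74, 4.84, 4.77 and 4.85. Each AP5 array was above each vehicle array, by little over vehicle 2, and the change was 0.29 (SE 0.06, adjusted p = 0.00372), with -0.06 in red and -0.29 in green. Among 8 active zone genes only Bsn passed the test. Bsn, the large scaffold bassoon, had vehicle ratios of 2.96, 3.20, 3.21, 3.04 and 3.22, and AP5 ratios of 3.70, 3.34, 3.43, 3.54 and 3.37. The groups did not overlap, and the change was 0.35 (SE 0.08, adjusted p = 0.00625), with 0.01 in red. A further Bsn probe with a vehicle ratio of 0.24 gave 0.02. Its partner Pclo gave 0.33, and the RIM scaffolds Rims1, Rims2 and Rims3 gave 0.22, 0.30 and 0.24, none of them called. The priming factors Unc13a, Unc13b and Unc13c gave 0.02, 0.08 and 0.02.

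None of the 4 endocytic genes was called. Amph, amphiphysin, which bends membrane and recruits dynamin, had vehicle ratios of 6.34, 6.10, 6.19 and 5.95 on arrays 2 to 5, its spot on vehicle 1 having been left out. Its AP5 ratios were 6.64, 6.48, 6.43, 6.19 and 6.82. AP5 4 fell inside the vehicle range, and the difference was 0.36 (SE 0.14, adjusted p = 0.0727). It was called without AP5 4 (0.44, adjusted p = 0.0311) and without Ro25 2 (0.36, adjusted p = 0.038). Snap91, the clathrin adaptor AP180, gave 0.32, the phosphatase Synj1 0.06 and the GTPase Dnm1, which cuts vesicles free, 0.0050.

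**Figure D1:**
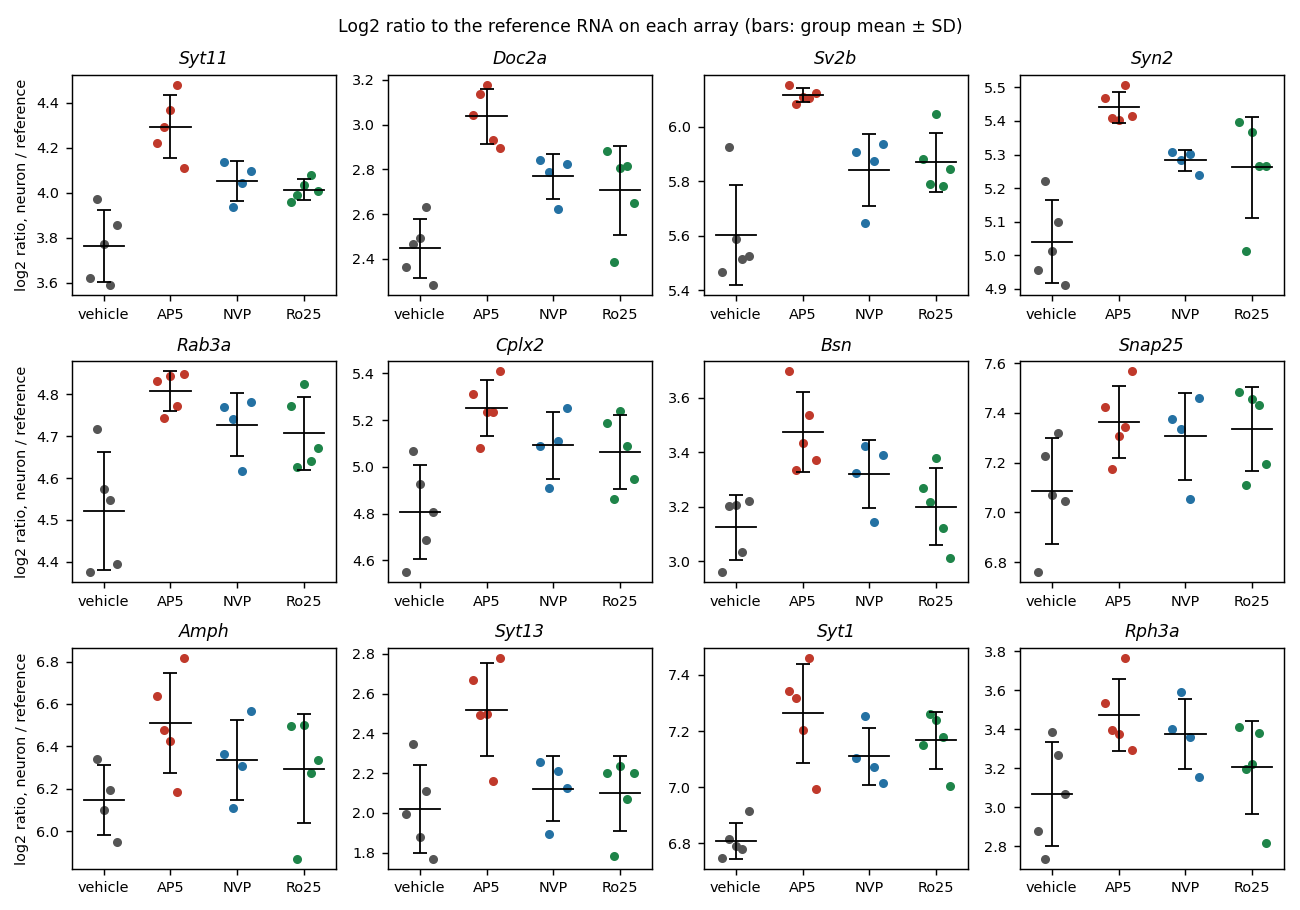
Log2 ratio of neuron over reference RNA on each array (vertical axis) for 12 genes, by group (vehicle n = 5, or 4 for Amph, AP5 n = 5, NVP n = 4, Ro25 n = 5). Points are arrays, lines are group means and bars are ±1 SD. The AP5 arrays of Syt11 (4.11 to 4.48), Doc2a (2.90 to 3.18) and Syn2 (5.40 to 5.51) lie above all vehicle arrays, while those of Syt13, Rph3a, Snap25 and Amph overlap with vehicle.

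The channels taken one at a time did not move alike. With the red channel alone, which carries the neuron RNA, 2 of the 48 genes were called between AP5 and vehicle, against 10.9% of all genes. Syt13 was higher by 0.34 (adjusted p = 0.049), and Syt12, another atypical synaptotagmin, fell by 0.24 (adjusted p = 0.0288). The median red difference of the 48 genes was -0.03, and 20 of the 48 values lay above 0, as did 48.9% of all genes. For the 13 genes whose ratio rose, the red difference ran from -0.16 to 0.34, and its sign was opposite to the ratio's for Syngr3, Sv2b, Syt1, Rph3a, Cplx1, Napb and Rab3a. Each channel was normalized apart from the other, so red minus green need not equal the ratio's change.

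The green channel, which carries the same reference RNA on every array, was lower on AP5 than on vehicle arrays for these genes. Of the 48, 12 were called lower and none higher, where 3.07% of all genes were called lower and 5.19% were called either way. They were Syn2, Syp, Sv2a, Sv2b, Syt1, Syt11, Syt12, Rph3a, Cplx1, Cplx2, Nsf and Rab3a. The green difference was below 0 for 42 of the 48 genes, with a median of -0.09 against 0.01 over all genes. All 13 genes with a raised ratio were lower in green, with differences from -0.49 to -0.15, and 8 of them were called there.

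Syt11 had a raised ratio with a red difference of 0.02. Its log2 red signal was 16.46, 16.52, 16.57, 16.56 and 16.87 with vehicle and 16.49, 16.66, 16.73, 16.88 and 16.34 with AP5, and the groups overlapped. Its log2 green signal was 11.54, 11.31, 11.49, 11.67 and 11.56 with vehicle and 11.02, 11.02, 11.005, 11.06 and 11.01 with AP5. Every AP5 array was thus below every vehicle array in green, where the mean fell by 0.49 (adjusted p = 6.31e-04). Doc2a gave 0.13 in red and -0.24 in green, and neither was called. Syt13 alone was called in both the ratio and the red channel, with log2 red of 15.16, 15.18, 15.05, 15.21 and 14.88 with vehicle and 15.56, 15.41, 15.33, 15.15 and 15.75 with AP5. These groups overlapped through AP5 4. What made the reference signal of these genes lower on AP5 arrays was not tested, and treatment and slide cannot be told apart there.

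**Figure D2:**
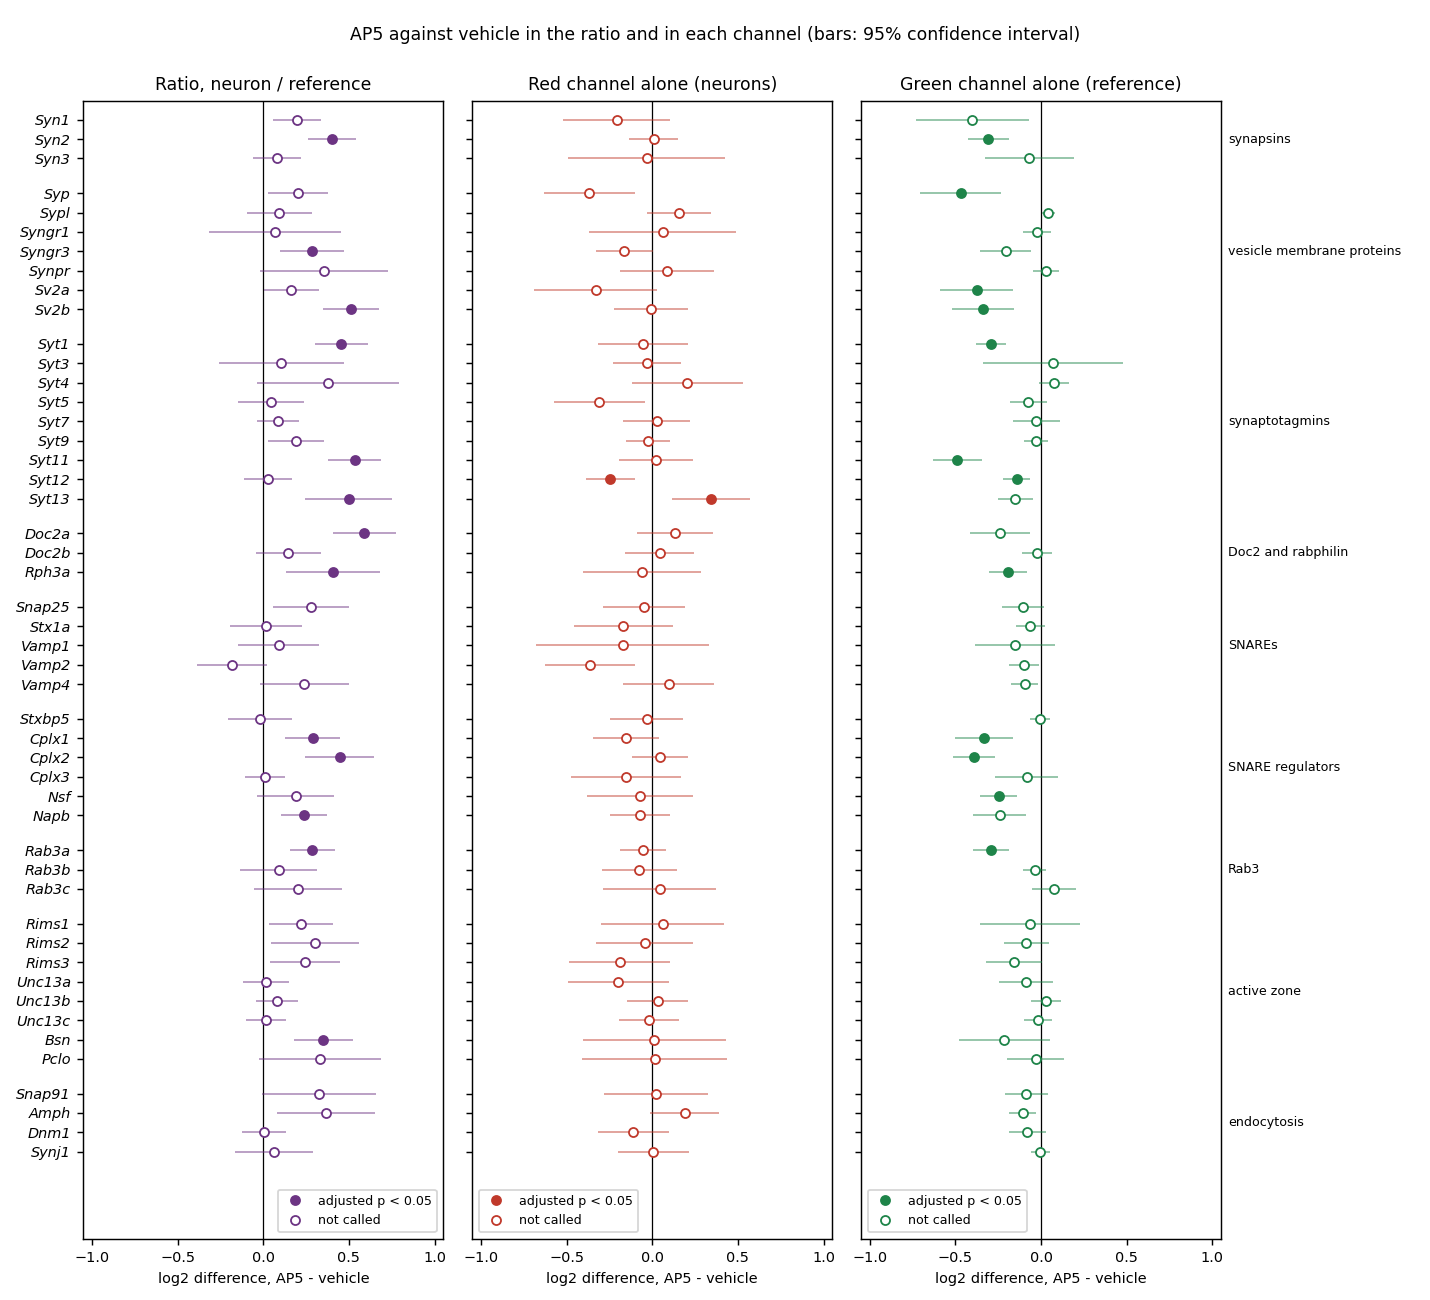
Log2 difference between AP5 (n = 5) and vehicle (n = 5) arrays for the 48 tested genes, in the ratio, the red channel (neurons) and the green channel (reference), with 95% confidence intervals. Filled points passed an adjusted p of 0.05. The 13 filled points of the ratio all lie above 0, red has 2 filled points on opposite sides of 0, and the 12 filled points of green all lie below 0.

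Above a mean ratio of 2, the median changes of these genes lay near those of other genes of like ratio. Over all other genes, the median AP5 change of the ratio was -0.11 where the mean ratio was below -1, 0.13 where it was 2 to 3, 0.23 at 3 to 4, 0.29 at 4 to 5 and 0.34 above 5. In the same ranges the medians of the synaptic genes were 0.15 at 2 to 3 (10 genes), 0.23 at 3 to 4 (10 genes), 0.31 at 4 to 5 (6 genes) and 0.36 above 5 (9 genes). The 13 genes with a mean ratio below 2 gave 0.07 at -1 to 0, 0.08 at 0 to 1 and 0.05 at 1 to 2, where other genes gave -0.02, 0.03 and 0.10. In green the medians were further below 0 than those of other genes, with -0.18 against -0.04 at 3 to 4 and -0.29 against -0.14 above 5. Among the other genes with a mean ratio above 5, 49.3% were called higher with AP5. The spread of all ratios on an array moved with the group too. The SD of all log2 ratios on an array was 1.65 to 1.71 with AP5 and 1.52 to 1.62 with vehicle.

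After the smooth trend of change with mean ratio was taken off each array, the median change of the 48 genes was 0.04. On that scale 4 genes were higher and 1 was lower. The share of all genes called on that scale is not given here, so these counts do not set the 48 genes apart. Doc2a was higher by 0.42 (adjusted p = 7.92e-04), Syt13 by 0.36 (adjusted p = 0.0288), Syt11 by 0.28 (adjusted p = 0.0416) and Syn1 by 0.25 (adjusted p = 0.0157). Vamp2 fell by 0.39 (adjusted p = 0.0193) relative to genes of like ratio. That value is from 1 of its 3 kept probes, and before centring 2 of the 3 lay above 0, at up to 0.09. For Rab3a and Cplx1 the values were -0.0014 and -0.02, so the sign turned. Doc2a, Syt11 and Syt13 were thus the genes called both in the ratio and against genes of like ratio, and Syt13 was the one also called in red. All 3 lost the ratio call with slide as a fixed term. Syt11 and Syt13 lost it with all arrays scaled to 1 common spread, and Doc2a with flagged spots kept. Syt13 also lost it without the 4 arrays lowest in astrocyte markers.

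The count of calls also moved with how the arrays were scaled. In 1 alternative, flagged spots were kept in the background fit, the normalization and the tested values. There 2 genes were called (Syt11 and Syt13) and the median change was 0.05. Vehicle 5 had 1642 flagged spots, against 117 to 266 on the other arrays, and its part in this drop was not tested. With the ratios of every array scaled to 1 common spread, Doc2a and Syn1 were higher and Vamp2 was lower, and 9 of the 13 called genes turned sign. For neither setting is the share of all genes called given here.

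**Figure D3:**
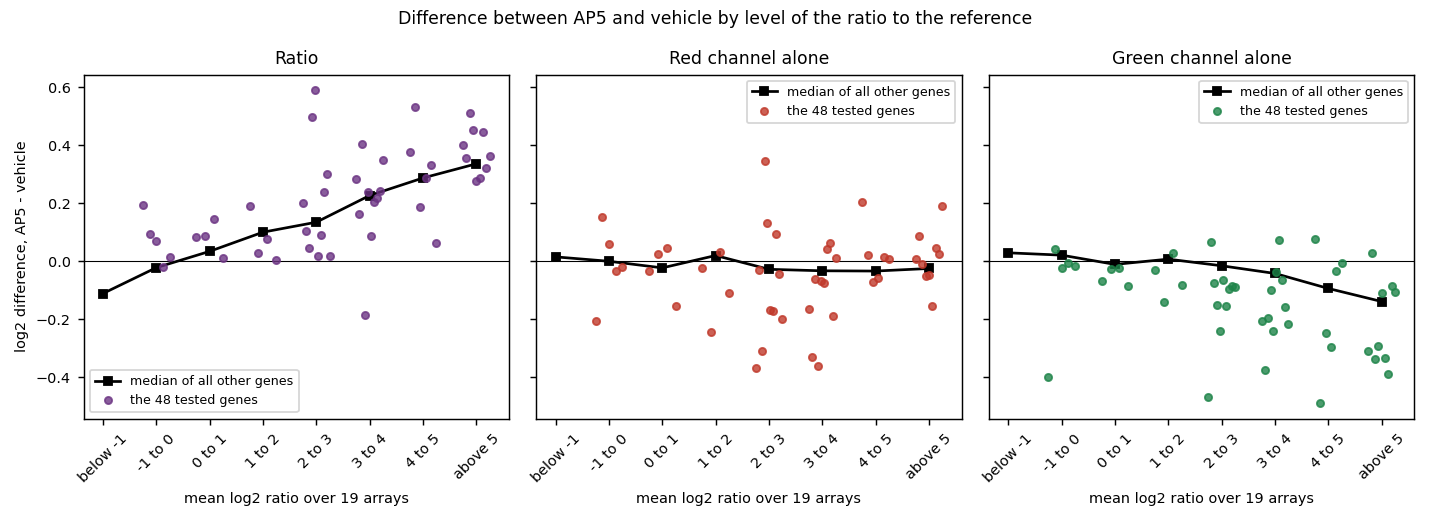
Log2 difference between AP5 and vehicle arrays (vertical axis) by mean log2 ratio over the 19 arrays (horizontal axis, in ranges), for the ratio and each channel. Coloured points are the 48 genes and black squares the medians of all other genes. In the ratio the squares climb from -0.11 to 0.34 and the points follow them, in red the squares stay near 0, and in green they fall to -0.14 above a mean ratio of 5.

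Separate probes of 1 gene gave unequal changes. Of the 99 kept probes 93 lay above 0 with AP5, as did 53.6% of all kept probes, and 31 were called higher (10.2% of all kept probes) and none lower. Among the 61 probes with a vehicle ratio of at least 2, 28 were called higher (30% of all such probes), and among the 38 below it 3 were (8.36%). The Syngr1 probe used had a vehicle ratio of -0.87 and gave 0.07, while a further probe at chr15:79946016-79946075 (mm8) with a vehicle ratio of 4.23 gave 0.39 (adjusted p = 0.0018). Cplx2 ran from 0.04 to 0.56 over 4 probes. In 31 genes more than 1 probe was kept, and for the 9 of them called with AP5 every kept probe lay above 0.

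**Figure D4:**
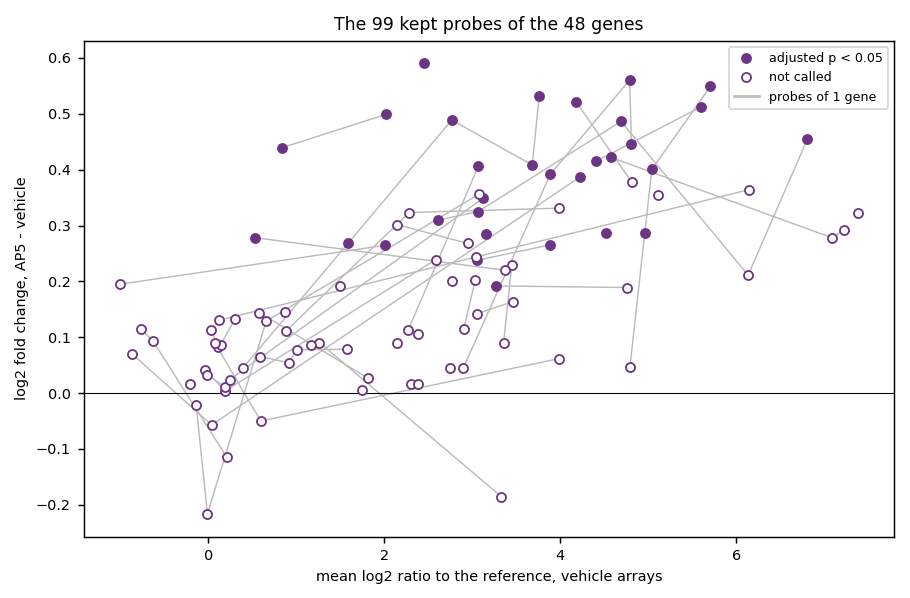
Log2 fold change of the ratio, AP5 against vehicle (vertical axis), for each of the 99 kept probes by its mean log2 ratio on the vehicle arrays (horizontal axis). Grey lines join probes of 1 gene and filled points passed an adjusted p of 0.05. Of the filled points, 28 lie at a vehicle ratio of at least 2 and 3 below it.

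NVP and Ro25 were compared with the same 5 vehicle arrays as AP5, so these comparisons share their controls. No gene of the 48 was called with NVP (0% of all genes were called) or with Ro25 (0%). At an unadjusted p under 0.05, 14 of the 48 passed with NVP (8.28% of all genes) and 9 with Ro25 (6.15%). The median change was 0.15 with NVP and 0.08 with Ro25, with 41 of the 48 above 0 for NVP (55.9% of all genes) and 44 for Ro25 (53.6%). In red alone the medians were -0.0082 and -0.02, and no gene of the 48 was called with NVP (0% of all genes) or Ro25 (0.0104%). In green they were -0.08 and -0.07. After the trend with mean ratio was taken off each array, the median change of the ratio was 0.04 with NVP and 0.015 with Ro25. Other genes with a mean ratio of 3 to 4, 4 to 5 and above 5 had medians of 0.14, 0.17 and 0.19 with NVP. With Ro25 theirs were 0.10, 0.13 and 0.17. The synaptic genes in these ranges gave 0.17, 0.24 and 0.22 with NVP and 0.12, 0.13 and 0.22 with Ro25.

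Syt11 had ratios of 4.14, 3.93, 4.04 and 4.09 on the NVP arrays and 3.96, 3.99, 4.03, 4.08 and 4.01 on the Ro25 arrays. The means lay between those of vehicle and AP5, the lowest array of either group fell below vehicle 2, and the differences from vehicle were 0.29 and 0.25 (limma adjusted p = 0.311 and 0.542). Doc2a had 2.84, 2.79, 2.62 and 2.82 with NVP and 2.88, 2.39, 2.81, 2.82 and 2.65 with Ro25, with differences of 0.32 and 0.26. Both overlapped with vehicle. Syt1 had 7.10, 7.25, 7.07 and 7.01 with NVP and 7.15, 7.26, 7.24, 7.18 and 7.0 with Ro25. All of these lay above the 5 vehicle arrays of Syt1, with differences of 0.30 (95% interval 0.14 to 0.47, adjusted p = 0.302) and 0.36 (0.20 to 0.51, adjusted p = 0.325). For Syt1 the red differences were 0.05 with NVP and 0.05 with Ro25, and the green ones -0.16 and -0.22, none of them called. Syt13 had 2.26, 1.89, 2.21 and 2.13 with NVP and 2.20, 1.78, 2.24, 2.07 and 2.20 with Ro25, which overlapped with vehicle, and its differences were 0.10 and 0.08. Of the other genes, Syn2 gave 0.24 with NVP and 0.22 with Ro25, Sv2b 0.24 and 0.27, Cplx2 0.28 and 0.26, Rab3a 0.21 and 0.19, and Bsn 0.19 and 0.07. Rph3a gave 0.31 and 0.14, Snap25 0.22 and 0.25, and Amph 0.19 and 0.15. None of these passed the test.

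Set directly against Ro25, at a dose that differs, AP5 gave higher ratios for 3 of the 48 genes, or 6.25%, where 6.06% of all genes were called and 4.11% were higher, so the share was near the background. Syt13 was higher by 0.42 (95% interval 0.17 to 0.67, adjusted p = 0.0452), Doc2a by 0.33 (0.14 to 0.52, adjusted p = 0.0311) and Syt11 by 0.28 (0.12 to 0.44, adjusted p = 0.0293). In red alone none of the 3 was called, and the value for Syt11 was -0.0044. These calls were lost on leaving out single arrays, with changes of 0.34 to 0.45 for Syt13, 0.25 to 0.33 for Doc2a and 0.23 to 0.28 for Syt11 where they were lost. That held for Doc2a without AP5 1, AP5 2, AP5 3, Ro25 2 or Ro25 5, and for Syt11 without AP5 2, AP5 3, AP5 4, Ro25 1, Ro25 2 or Ro25 5. It held for Syt13 without any 1 of 13 arrays, which left 6 arrays whose omission kept the call. No gene of the 48 was called between AP5 and NVP (4.24% of all genes) or between NVP and Ro25 (0%). The difference between AP5 and NVP was 0.40 for Syt13 (0.13 to 0.66), 0.27 for Doc2a (0.07 to 0.47) and 0.24 for Syt11 (0.08 to 0.41), and these intervals lie above 0 although none passed after adjustment.

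Some slides held arrays of different groups. Within slide 4 the median of the 48 genes was -0.02 for Ro25 against vehicle (3 arrays against 1), where the whole series gave 0.08, and within slide 3 it was -0.01 for NVP against Ro25 (2 against 2), where it gave 0.03. Within slide 2 it was 0.12 for AP5 against NVP (1 against 2), where it gave 0.07. These are values without a test. With slide as a fixed term, which links AP5 to vehicle only through the other groups, none of the 48 genes was called between them and the median change was 0.10.

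**Figure D5:**
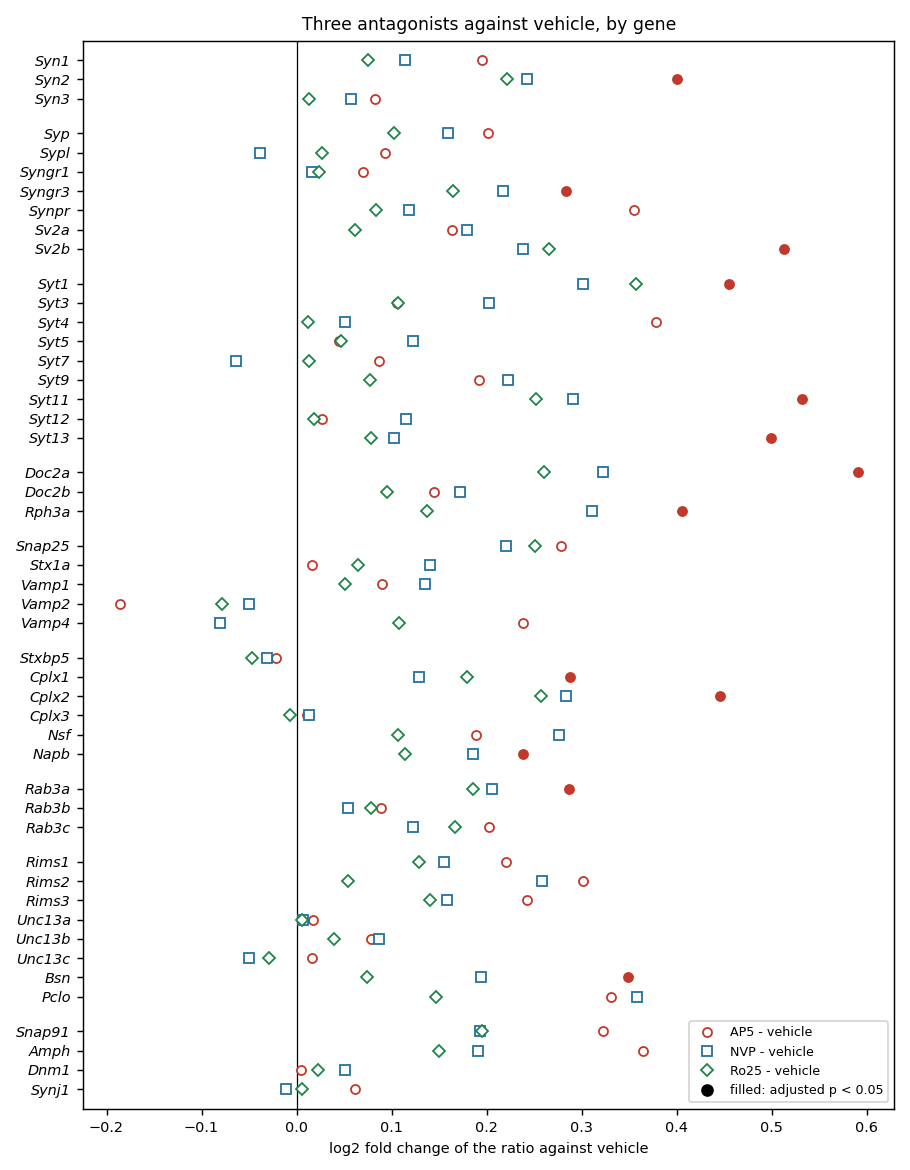
Log2 fold change of the ratio against the same 5 vehicle arrays (horizontal axis) for the 48 genes with AP5 (circles), NVP (squares) and Ro25 (diamonds), at doses that differ. Filled symbols passed an adjusted p of 0.05, and all 13 belong to AP5. The medians over the 48 genes are 0.20, 0.15 and 0.08.

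The other genes of the presynaptic pathway were counted from a list of 83, of which 80 were measured. With AP5, 16 rose, 3 fell and 61 were not called, with a median of 0.09. Of all genes, 10.8% rose and 7.22% fell with AP5. With NVP and Ro25 none was called (0% of all genes for each). In red alone 1 rose and 4 fell with AP5, where 10.9% of all genes were called. How these genes compare with genes of like ratio was not tested. Among the further active zone genes 7 of 19 rose, among them Apba2, the adaptor Mint2, by 0.33 (adjusted p = 0.00167), and Ppfia3, a liprin-alpha scaffold, by 0.29 (adjusted p = 0.00376). Among the further vesicle proteins 3 of 18 rose, among them Svop, a transporter-like vesicle protein, by 0.59 (adjusted p = 0.00161), and Slc32a1, the vesicular GABA transporter, by 0.37 (adjusted p = 0.00218). Among the further SNAREs and regulators 2 of 20 rose, with Snph, syntaphilin, at 0.32 (adjusted p = 0.00132). In that group Rab3d, a Rab3 GTPase of secretory granules, fell by 0.52 (adjusted p = 2.66e-04) in the ratio and by 0.49 in red. Among further endocytic genes 4 of 23 rose in the ratio and 2 fell, with the scaffold Itsn1 at 0.31 (adjusted p = 0.00113) and the endophilin Sh3gl3 at 0.29 (adjusted p = 0.0149). Of these genes Rab3d and Svop passed the test in red as well. Pacsin1, an endocytic adaptor counted among the 4, was higher in the ratio by 0.32 (adjusted p = 0.0401) but fell by 0.50 in red (adjusted p = 0.00198). It was named after its values were seen.

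Marker lists of the cell types also moved in the ratio with AP5. Of 12 excitatory neuron markers 5 rose, of 13 GABAergic markers 5 rose and of 17 astrocyte markers 4 rose, with medians of 0.24, 0.29 and 0.30. Of all genes 10.8% rose. Genes outside the 48 had medians of 0.13 at a mean ratio of 2 to 3 and 0.23 at 3 to 4. In red alone the medians of the 3 lists were -0.03, -0.03 and -0.02. There 1 excitatory marker was called higher and 3 lower, with none called in the other lists of the 3. Of all genes 10.9% were called in red. Of 11 microglial markers 3 fell in the ratio, with a median of -0.18, where 7.22% of all genes fell. Genes outside the 48 with a mean ratio below -1 had a median of -0.11. The mean astrocyte ratio ran from 3.18 to 4.44 over the AP5 arrays and from 3.07 to 4.04 over the vehicle arrays, and the lowest arrays were Ro25 3, vehicle 3, NVP 4 and AP5 5. Without these 4 arrays 15 of the 48 genes were called with AP5, all higher, of which 11 were among the 13. Syt13 and Napb were not called there. With the astrocyte mean as a covariate 22 were called, all higher. The share of all genes called is not given for either fit, so these counts do not set the 48 genes apart. Whether the other cell types took part in the changes was not tested.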

How the data were processed

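Whole-transcriptome mouse arrays (Agilent, 2 colours, no dye swap) carried Cy5 neuron RNA against Cy3 universal mouse reference RNA. Per the file headers, spots were read with Feature Extraction 9.5.3.1 (protocol GE2-v5_95_Feb07). The submitters' processing notes give that program as 11.0. The deposited red and green mean signal and background columns are linear intensity values, and the deposited scanner log ratio is in log10. The authors' value table holds log2 ratios of red over green for 20674 probes. Set against the scanner ratios it ran the same way (r 0.9986 to 0.9998), and its centring is unknown.

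Control and flagged spots were removed, which left out 6 gene values on single arrays. Vehicle 5 had 1642 flagged spots, against 117 to 266 on the other arrays. The values left out for Nsf, Rab3b, Rims1 and Snap91 were on vehicle 5. That array also had the lowest median ratio of the synaptic genes (2.71) and the lowest SD of all ratios (1.52). Intensities were background-corrected (limma 3.58.1 in R 4.3.3, normexp, offset 50) and loess-normalized within each array. A gene took its brightest probe with red well above background on at least 4 arrays. Genes were named through RefSeq accessions (23374 probes), symbols (6733) or synonyms (2919), and 8148 probes kept the file's name. Group means of the 19 arrays were fitted with lmFit and eBayes, and p-values were adjusted within each of 6 comparisons. Single channels were quantile-normalized. Like-ratio centring took off a lowess curve (span 0.3) per array. The scripts were tested on simulated data.

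Values in every array are given for the gene of smallest F-test p in each role group and the called genes of largest AP5 change. Other called genes are named with their values. The genes and lists were chosen with earlier results of these data known. The alternatives were flagged spots kept, scaling, filter, probe choice, slide, replicate number, astrocyte level and leaving out arrays.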

Additional observations from a re-analysis of the deposited data

Results flagged for a closer look

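On single arrays, 2 values stood far from the rest of their group among 60 groups examined, where chance gives about 1 in 20 groups. Sv2b had a log2 ratio of 5.92 on vehicle 2, with the other vehicle arrays at 5.47 to 5.59. Syngr3 had 3.70 on Ro25 3, with the other Ro25 arrays at 3.17 to 3.30.

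The change against vehicle was larger with AP5 than with Ro25 by 0.42 for Syt13, by 0.33 for Doc2a and by 0.28 for Syt11, by the direct limma test of AP5 against Ro25 (adjusted p = 0.0452, 0.0311 and 0.0293). The doses differed. The share of these genes called, 6.25%, was near that of all genes, 6.06%. None of the 3 was called in red alone, with median centring, with 1 spread over arrays, with like-ratio centring, with slide as a fixed block, or without some single arrays.

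Probes under older names gave signal that the symbol list did not reach. A probe that the files name AI841971, whose current symbol is Sv2c, had red well above background on 19 arrays. Its vehicle ratio was 1.21 ± 0.24 (SD, n = 5) and its AP5 change 0.22 (limma adjusted p = 0.358). A probe named B230112P13Rik, currently Syt7, was also well above background on 19 arrays. Its vehicle ratio was 1.28 ± 0.23 (SD, n = 5) and its AP5 change 0.29 (limma adjusted p = 0.115).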

How the results depend on the processing

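The count of genes called with AP5 against vehicle was 13 as reported. It was 2 with flagged spots kept throughout, 25 with median centring and 3 with 1 spread over arrays. It was 2 in red alone, 5 with like-ratio centring and 0 with slide as a fixed block. It was 20 with slide as a random block and 22 with the astrocyte covariate. The random block rests on an estimated correlation within slides of -0.078. A value below 0 narrows the error between slides, and slides were tied to treatment. Leaving out 1 array at a time gave 11 to 16. The other alternatives gave 11 to 16. The share of all genes called under each alternative is not given here, so these counts do not set the synaptic genes apart. Against Ro25 the count of 3 became 0 with flagged spots kept, median centring, 1 spread, red alone, like-ratio centring or slide fixed. It was 5 with slide random, 6 with the astrocyte covariate and 0 to 5 without single arrays. AP5 against NVP gave 2 with slide random, 1 with the covariate and 0 to 1 without single arrays. Values turned sign with 1 spread over arrays for Syt1 (-0.31), Cplx1 (-0.26), Rab3a (-0.21), Syn2 (-0.16), Sv2b (-0.12), Napb (-0.11), Cplx2 (-0.10), Syngr3 (-0.066) and Bsn (-0.012). In red alone they turned for Syngr3 (-0.16), Cplx1 (-0.15), Napb (-0.069), Rab3a (-0.057), Rph3a (-0.060), Syt1 (-0.052) and Sv2b (-0.0085), and with like-ratio centring for Rab3a (-0.0014) and Cplx1 (-0.024). For AP5 against Ro25, Syt11 gave -0.0044 in red. The cause was not tested. No pairing by replicate number was visible. Deviations of same-numbered arrays correlated from -0.62 to 0.76 (27 pairs, median -0.20). Other pairs of arrays from different groups correlated from -0.73 to 0.83 (108 pairs, median 0.07). AP5 5, NVP 4, Ro25 3 and vehicle 3, the arrays lowest in astrocyte markers, correlated with each other at 0.64 to 0.83. The main test had no term for this shared deviation. With the replicate block 14 genes were called for AP5 against vehicle and 1 against Ro25.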
